A study of Arabidopsis thaliana with 12 samples.

Results

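The net state of Arabidopsis thaliana seedlings given far-red light and abscisic acid (ABA) together was described here against seedlings kept in white light alone. The arrays were chosen by their sample titles: 3 of far-red with ABA and 3 of white light, 6 of the 12 arrays of the study. The description covers 22746 probe sets, which are all probe sets of the array that are not controls. The other 6 arrays, 3 of white light with ABA and 3 of far-red, were used to ask which genes add up and which cancel.

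All plants of the 4 groups grew for 9 days in continuous white light, printed in the labels as 80 mmol per square metre and second, at 22 °C. They were then treated for 24 hours, and RNA was taken from aerial parts of 10-day-old plants. Plants of the far-red with ABA group received white light with supplemental far-red light (printed as 6 mmol per square metre and second) and ABA at 1 mM. Plants of the white light with ABA group received the same ABA without far-red light, plants of the far-red group the same far-red light without ABA, and plants of the white-light group neither. No strain, mutation or transgene is given in the sources used here, and the light and dose prefixes are repeated as printed. The sample titles name the arrays within each group as biological replicates.

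Leaves absorb red light and pass far-red light, so a plant beside neighbours sees far-red light in excess, and supplemental far-red imitates this. Phytochromes, the red and far-red photoreceptors, lose activity in such light, PIF transcription factors are released, and auxin synthesis and cell elongation genes come on as part of shade avoidance. ABA is the hormone of drought and seed maturation. Its receptors block a class of protein phosphatases, which frees SnRK2 kinases to switch on bZIP factors and, through them, genes for protective proteins such as late embryogenesis abundant (LEA) proteins. A plant that is shaded and dry receives both signals at once.

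Values are on the log2 scale of normalised expression. On that scale 1 unit is a 2-fold difference, and a difference is the mean of the first group minus the mean of the other. Tests are limma's moderated test with Benjamini-Hochberg adjustment over all 22746 probe sets, and a probe set past an adjusted p of 0.05 is said to be called. Array medians were 5.525 to 5.577 in far-red with ABA and 5.454 to 5.503 in white light, with no overlap (difference 0.067, exact permutation p = 0.1, the smallest that 3 against 3 arrays allow). Shares of probe sets detected as present were 61.1% to 63.6% in far-red with ABA and 60.6% to 63.0% in white light. The 3 measured light-harvesting genes of the aerial-tissue list differed by -0.16 to 0.03 and the 2 measured root genes by -0.28 and -0.24, none of them called and 0 at an unadjusted p under 0.05. The bulk of the tissue was measured, so a change in the number of cells of one type and a change of RNA per cell cannot be told apart.

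Seedlings given both signals differed from white-light seedlings at 2400 probe sets, 10.6% of those tested, of which 1473 were higher and 927 lower. The difference reached 2-fold at 216 of them, 146 higher and 70 lower. The median size of a called difference was 0.47 log2 units, against a median standard error of 0.101. The higher share, 61.4%, rested on the scaling of the arrays: when each array was centred on its median, 1056 were higher and 1642 lower, and the median of all probe sets moved to -0.082 from -0.015. Without replicate 3 of far-red with ABA the count was 1492.

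**Figure D1:**
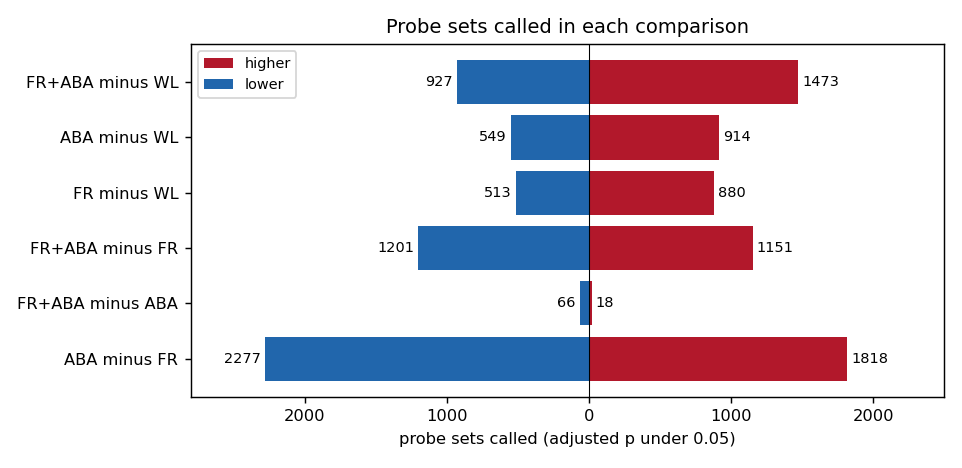
Probe sets called in 6 comparisons at an adjusted p under 0.05, with those higher in the first-named group to the right of 0 and those lower to the left. FR+ABA is far-red with ABA, ABA is white light with ABA, FR is far-red and WL is white light. The combined treatment had 1473 higher and 927 lower, and its step from ABA alone had 18 higher and 66 lower.

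The same white-light arrays serve the single treatments, so the counts are only set side by side. White light with ABA differed from white light at 1463 probe sets (6.43%) and far-red at 1393 (6.12%). Adding ABA to far-red moved 2352 probe sets (10.3%), and adding far-red to ABA moved 84 (0.369%), 18 up and 66 down. At an unadjusted p under 0.05 in limma, adding far-red to ABA gave 2573 (11.3%) and far-red alone 5023 (22.1%). Counts past a threshold do not compare the effects of far-red with and without ABA, which the interaction below does. The ABA step minus the far-red step is, gene by gene, white light with ABA minus far-red, a comparison that shares no array with the combined one. It called 4095 probe sets, 18.0% of those tested. Of these, 992 were also called in the combined comparison and 3103 were not. The 95% interval of the combined difference lay within 0.5 log2 units of 0 for 66.4% of the 4095, against 80.4% of all probe sets tested.

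The largest named rises of the combined treatment were genes of lipid-transfer and LEA protein families. AT2G37870, of the lipid-transfer protein family whose secreted members bind lipids, stood at 8.98, 9.04 and 8.70 in far-red with ABA, 8.60, 8.91 and 8.91 in white light with ABA, 5.03, 5.02 and 5.03 in far-red, and 4.62, 4.95 and 5.15 in white light. Far-red with ABA and white light lay apart by 4.0 ± 0.13 log2 units (SE), a 16-fold difference with an adjusted p of 2e-11, although 1 white-light array was below detection. The combined arrays overlapped with those of ABA alone. Members of the same family, AT4G33550 and AT3G53980, rose by 3.41 ± 0.11 and 2.79 ± 0.16.

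COR15A, which encodes a small LEA-like protein that protects chloroplast membranes in cold and drought, stood at 10.54, 10.82 and 10.38 in far-red with ABA. It stood at 11.01, 10.60 and 10.87 in white light with ABA, 7.23, 7.80 and 7.94 in far-red, and 7.92, 7.11 and 7.80 in white light. The combined difference was 2.97 ± 0.20 (adjusted p = 2.2e-07), and the far-red and white-light arrays overlapped. The dehydrin LTI30, another protectant of membranes, rose by 2.44 ± 0.27, and the LEA family gene AT3G02480 by 2.60 ± 0.32. AT3G02480 was also raised by each single treatment, by 3.10 with ABA alone and by 1.49 with far-red alone (adjusted p = 0.016), with 1 white-light array below detection.

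Other large rises were of mixed function. ATC, a relative of the flowering repressor TFL1, was below detection on every white-light array. By group means it was at least 4-fold higher in far-red with ABA, at 6.24, 6.29 and 6.72 against 4.33, 4.36 and 4.55. Each fold given as at least a value, here and below, compares group means and takes no account of the standard error. The lectin family gene AT1G73040 rose by 1.88 ± 0.13 and the TRAF-domain family gene AT3G28220 by 1.94 ± 0.21. The hydrolase family gene AT5G22460 stood at 7.18, 7.29 and 7.03 in far-red with ABA and at 4.87, 4.89 and 5.02 in white light (adjusted p = 3.1e-06). No fold is given for it, since no white-light array had a present call. AT1G80130 (2.47 ± 0.12) and AT3G19620, of a glycosyl hydrolase family (1.90 ± 0.13), were raised by both factors.

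The largest named fall was that of AT5G62360, of the family of invertase and pectin methylesterase inhibitors, which act on cell-wall and sugar enzymes. It stood at 5.29, 5.27 and 5.05 in far-red with ABA, 6.82, 6.90 and 7.04 in white light with ABA, 6.83, 6.56 and 6.19 in far-red, and 8.68, 8.33 and 8.68 in white light. The combined difference was -3.36 ± 0.14, a 10.3-fold difference (adjusted p = 7.2e-10), and 2 of the 3 far-red with ABA arrays were below detection. Both single treatments lay between the combined treatment and white light, and neither overlapped with them.

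The peroxidase gene AT4G11290 was below detection in every far-red with ABA array and was at least 5.08-fold lower there. The glycine-rich protein gene AT5G28630 was likewise at least 3.96-fold lower. EXPA8, an expansin that loosens cell walls, stood at 5.55, 4.83 and 5.88 in far-red with ABA and at 7.62, 6.66 and 7.91 in white light, a fall of 1.98 on the log2 scale (SE 0.33, adjusted p = 0.0012). The thionin family gene AT1G66100 differed by -2.26 ± 0.14, the lectin gene AT3G16530 by -2.06 ± 0.19 and the transporter gene AT3G23550 by -1.99 ± 0.32. The transporter gene AT1G22570, below detection on 1 far-red with ABA array, followed at -1.92 ± 0.17 and the small heat-shock-like gene AT4G21870 at -1.90 ± 0.12. The remaining named falls, AT3G06070, AT5G26280 (TRAF-domain family) and AT1G75960 (an AMP-binding enzyme family), ranged over -1.71 to -1.63. AT3G06070 was below detection on 1 far-red with ABA array and AT1G75960 on 2.

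Detection calls gave a view of genes at the edge of measurement. 41 probe sets were present on all 3 far-red with ABA arrays and absent on all 3 white-light arrays, and 29 of these were also called. The reverse held for 22 probe sets, of which 10 were called. Among the 15 named genes of the first kind were SWEET13, a sucrose transporter, PRX52, a cell-wall peroxidase (at least 3.56-fold), and OSM34, an osmotin of stress and defence (at least 2.83-fold). OSM34 stood at 5.33, 4.85 and 6.08 in far-red with ABA and at 4.14, 3.89 and 3.72 in white light, so that its call (adjusted p = 0.03) came with a wide spread.

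Since each factor was given at both levels of the other, its effect can be averaged over them. The combined difference equals the averaged ABA effect plus the averaged far-red effect exactly, and in this design the errors of the 2 averages are independent. Averaged ABA effects were called at 3914 probe sets (17.2%) and averaged far-red effects at 2110 (9.28%). A probe set with both called in the same direction is termed adding here, and one with both called in opposite directions cancelling. The combined direction of an adding probe set follows from that definition and is not a separate result. The term does not mean that the single-treatment differences sum to the combined one.

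Adding probe sets numbered 224 (0.985% of those tested) and cancelling ones 474 (2.08%). Cancelling ones were the more numerous in 20 of 20 processing settings, by 1.46 to 2.49 times. Of the 1473 combined rises, 886 had only the averaged ABA effect called and 291 only the averaged far-red effect. A further 132 were adding, 11 cancelling and 153 had neither effect called. Of the 927 combined falls the same counts were 454, 237, 92, 19 and 125. In both directions the largest class had only the averaged ABA effect called, which does not show that far-red had no effect there. Its median averaged far-red effect was 0.07 among rises and -0.07 among falls. The combined difference contains the averaged far-red effect, so choosing rises or falls favours these signs, and the medians are not a separate result. The counts moved by over 1.5 times without single arrays: adding was 142 and 131 without replicate 1 or 2 of white light with ABA and 138 without replicate 3 of white light. Cancelling was 305 without replicate 2 and 305 without replicate 3 of far-red with ABA, 237 and 278 without replicate 1 or 2 of white light with ABA, 247 without replicate 2 of far-red, and 302 and 261 without replicate 1 or 3 of white light.

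**Figure D2:**
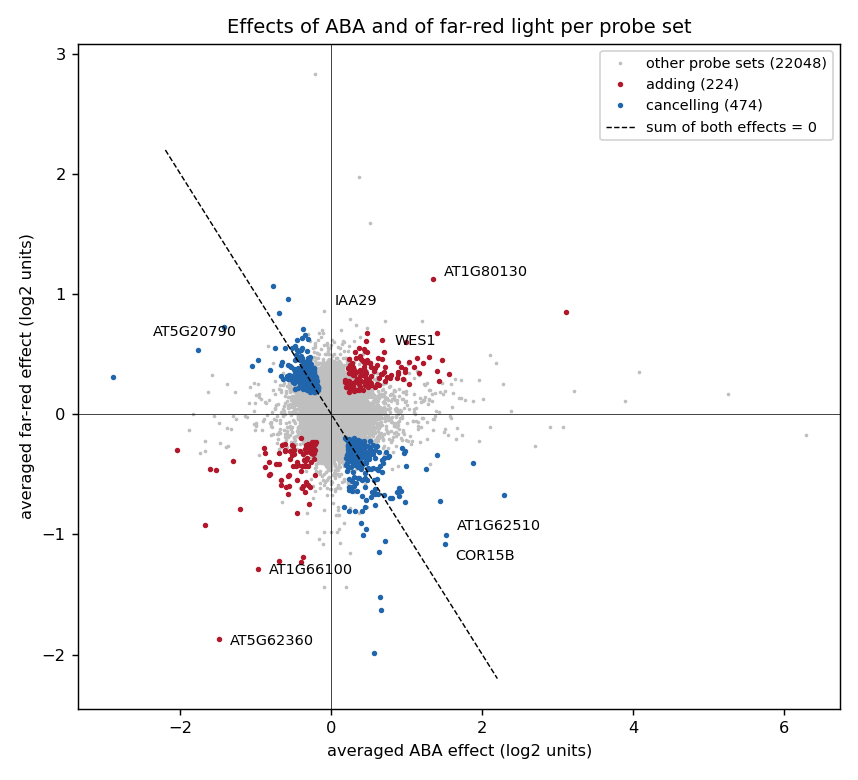
Averaged ABA effect (x axis, log2 units) against averaged far-red effect (y axis, log2 units) for each of the 22746 probe sets. Adding probe sets (224) lie in the upper right and lower left, cancelling ones (474) in the other quadrants, and on the dashed line the combined difference is 0. AT5G62360 lies farthest into the lower left, at -1.48 and -1.87.

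The interaction, which is the combined difference minus the sum of both single-treatment differences, was called for 0 probe sets by limma (smallest adjusted p = 0.4). At an unadjusted p under 0.05 there were 1465, or 6.44%. A limma fit with a trended robust variance called 2, and the fits without replicate 3 of far-red or of white light called 2 and 1. The median standard error of an interaction was 0.144 log2 units. Small departures from additivity at single genes were thus not detectable at this number of arrays, and larger ones could also go uncalled. The interaction of AT1G23390, at 0.83, was not called by limma (adjusted p = 0.4).

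Among the adding probe sets with a name, AT1G80130, of the tetratricopeptide-repeat family, had the largest combined rise. It stood at 8.60, 8.90 and 8.63 in far-red with ABA, 7.83, 7.54 and 7.73 in white light with ABA, 7.45, 7.70 and 7.29 in far-red, and 6.08, 6.30 and 6.34 in white light. The single treatments raised it by 1.46 (ABA) and 1.24 (far-red), and the interaction was -0.23 (95% interval -0.59 to 0.13). AT3G19620 rose by 1.83 with ABA alone and 0.61 with far-red alone. Its combined rise of 1.9 was smaller than these summed and close to that with ABA alone, but its interaction was not called by limma.

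Starch and sugar genes were among the adding ones. APL3, a large subunit of the enzyme that makes the precursor of starch, stood at 7.54, 7.77 and 7.71 in far-red with ABA, 7.77, 7.51 and 7.28 in white light with ABA, 6.72, 6.74 and 6.72 in far-red, and 6.12, 6.07 and 5.92 in white light. The combined and ABA-only arrays overlapped for APL3. Its averaged effects were 1.22 for ABA and 0.42 for far-red (adjusted p = 0.0049). SWEET13 was at least 2.8-fold higher in far-red with ABA than in white light. AT4G24450, of the glucan water dikinase family whose members phosphorylate starch, rose by 1.32 ± 0.11 with averaged effects of 0.97 and 0.35.

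Other genes raised by both were EXLB1, of the expansin-like family (1.46 ± 0.12), and AT4G21650, of the subtilisin-like protease family (1.59 ± 0.15). MGL, methionine gamma-lyase, rose by 1.51 ± 0.13, and its averaged far-red effect of 0.35 lost its call in 8 settings. WES1, a GH3 enzyme that joins auxin to amino acids, stood at 6.88, 7.03 and 7.34 in far-red with ABA, 6.46, 6.51 and 6.69 in white light with ABA, 6.24, 6.44 and 6.45 in far-red, and 5.74, 5.84 and 6.03 in white light. It rose by 1.21 ± 0.12 in the combined treatment, by 0.68 with ABA alone and by 0.51 with far-red alone. AT1G68570, the nitrate transporter family member NPF3.1, rose by 1.32 ± 0.11, and the sugar transporter TMT2 of the vacuole membrane by 0.62 ± 0.10.

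**Figure D3:**
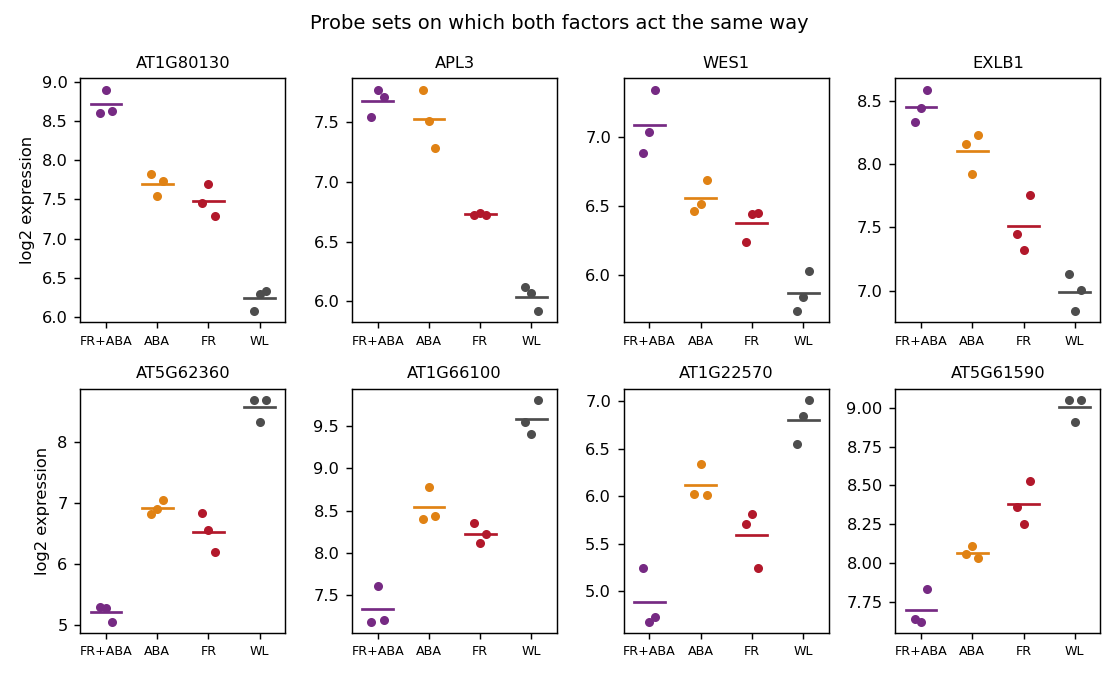
Log2 expression on each array (points) and group mean (bars) for 8 genes on which both averaged effects were called in the same direction. FR+ABA is far-red with ABA, ABA white light with ABA, FR far-red and WL white light. AT5G62360 falls to 5.05 to 5.29 in far-red with ABA, against 8.33 to 8.68 in white light.

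Genes lowered by both factors, apart from AT5G62360, included AT1G66100, a thionin gene of the small antimicrobial peptides. It stood at 7.18, 7.60 and 7.20 in far-red with ABA, 8.40, 8.78 and 8.44 in white light with ABA, 8.35, 8.11 and 8.22 in far-red, and 9.55, 9.41 and 9.81 in white light. AT1G22570 stood at 5.24, 4.68 and 4.73 in far-red with ABA and at 6.55, 6.84 and 7.01 in white light, with averaged effects of -0.69 for ABA and -1.22 for far-red. AT5G61590 encodes DEWAX, an ERF factor that represses cuticular wax synthesis, and it differed by -1.30 ± 0.09. AT2G25735 was below detection in far-red with ABA and at least 2.5-fold lower there.

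Other named adding falls were AT5G59080 (-1.27 ± 0.12), the glutaredoxin gene AT2G30540 (-1.26 ± 0.15) and the ribonuclease gene AT1G14210 (-1.19 ± 0.09). The BTB-domain gene AT2G30600 was measured by 2 probe sets, both adding, at -1.24 and -1.01. AT5G59080 fell by 0.74 with ABA alone and by 1.11 with far-red alone. Its combined fall was smaller than these summed, but its interaction was not called by limma. Its averaged effects were -0.45 for ABA and -0.82 for far-red.

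At 28 probe sets the combined group differed from white light and from each single treatment. Of these 18 lay beyond both single treatments, 6 above and 12 below, and 8 of the 18 had a single named gene. The 2 above were AT1G80130 and AT5G02580. The 6 below were AT5G62360, AT1G66100, AT1G22570, AT2G25735, AT2G30600 and MSRB6, a methionine sulfoxide reductase that repairs oxidised proteins (-1.07 against white light). This criterion was set after values had been seen and is a description.

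Cancelling probe sets were split into 206 raised by ABA and lowered by far-red and 268 the other way round. For 405 of the 474, or 85.4%, the 95% interval of the combined difference lay within 0.5 log2 units of 0, and 30 were called in the combined comparison, 11 higher and 19 lower. Over all probe sets tested the share within 0.5 units was 80.4%, near that of the cancelling ones. Opposite signs bring the sum of the averaged effects toward 0 by definition, so the share is not a separate result.

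COR15B, the close relative of COR15A, was the named cancelling gene whose smaller averaged effect was largest. It stood at 8.47, 8.26 and 8.34 in far-red with ABA, 9.71, 9.18 and 9.77 in white light with ABA, 6.92, 7.01 and 6.99 in far-red, and 8.20, 7.26 and 8.34 in white light. Far-red with ABA and white light overlapped, with a difference of 0.42 (95% interval -0.03 to 0.88, adjusted p = 0.24), against averaged effects of 1.5 for ABA and -1.08 for far-red. For COR15A the averaged far-red effect was -0.10 (adjusted p = 0.7). Whether the far-red effects on the 2 genes differ was not tested.

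AT1G62510, another lipid-transfer family gene, stood at 9.10, 9.10 and 8.59 in far-red with ABA, 9.58, 9.82 and 9.56 in white light with ABA, 7.23, 7.46 and 6.69 in far-red, and 8.23, 8.74 and 8.26 in white light. Its combined difference was 0.52 (95% interval 0.12 to 0.92, adjusted p = 0.095), from averaged effects of 1.52 and -1.01. The hydrolase family gene AT2G32150 came nearer to 0, at 0.07 (-0.15 to 0.30), from 0.77 and -0.70. EXLA1, an expansin-like gene, differed by 0.12 (-0.23 to 0.46), from 0.81 and -0.69, and AT2G15960 by -0.34 (-0.81 to 0.13). AT1G73480, of the hydrolase family, kept a called net rise of 0.72 (adjusted p = 0.022).

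In the other direction, XTH19, a xyloglucan endotransglucosylase that remodels cell walls, stood at 4.97, 5.11 and 4.85 in far-red with ABA, 4.45, 4.17 and 4.75 in white light with ABA, 5.49, 5.33 and 5.67 in far-red, and 4.90, 4.93 and 4.85 in white light. Its combined difference was 0.08 (95% interval -0.19 to 0.36), from averaged effects of -0.48 for ABA and 0.56 for far-red. The RNA methyltransferase family gene AT4G25730 differed by 0.02 (-0.24 to 0.28), from -0.47 and 0.49, and AT1G24575 by -0.04 (-0.35 to 0.28). AT3G23170 differed by -0.19 (-0.53 to 0.14), from -0.75 and 0.55. For AT1G80280 the averaged ABA effect lost its call in 6 settings and the far-red effect in 2.

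AT5G20790 was lowered by ABA more than far-red raised it. It stood at 7.57, 7.87 and 7.60 in far-red with ABA, 6.72, 7.03 and 7.0 in white light with ABA, 9.44, 9.17 and 9.04 in far-red, and 8.98, 8.93 and 8.83 in white light. The net difference was -1.23 ± 0.12 (adjusted p = 6.1e-06), from averaged effects of -1.77 and 0.53.

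**Figure D4:**
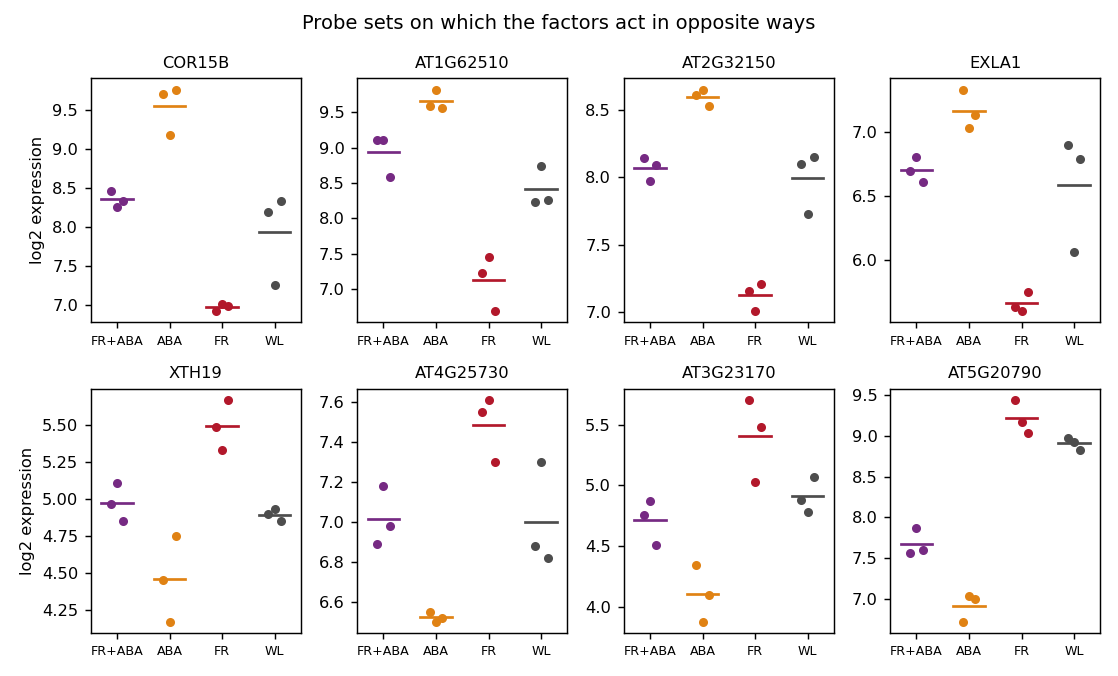
Log2 expression on each array (points) and group mean (bars) for 8 genes on which the averaged effects were called in opposite directions. FR+ABA is far-red with ABA, ABA white light with ABA, FR far-red and WL white light. Far-red with ABA and white light overlap for COR15B, XTH19 and AT4G25730, and AT5G20790 keeps a net fall of 1.23 log2 units.

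Gene lists were read by the count of their measured members called in the combined comparison, against 6.48% of all probe sets higher and 4.08% lower. The array's annotation names part of the probe sets, so each list was measured in part. Of the 12 measured LEA and dehydrin genes, 3 rose and 1 fell, with a median difference of 0.20. COR15A and LTI30 were the largest rises, and LEA4-5 was at least 3.64-fold higher, although 1 far-red with ABA array was below detection. The LEA-like gene AT2G46140 differed by -0.59, and the 8 others lay from -0.03 to 0.42. HIS1-3, a linker histone induced by drought, rose by 1.56 ± 0.16 where 2 white-light arrays were below detection.

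The shade list had 8 measured members of 55. IAA29, an auxin-response repressor that shade raises, stood at 4.68, 4.71 and 4.55 in far-red with ABA, 4.01, 3.64 and 3.84 in white light with ABA, 4.89, 4.68 and 4.81 in far-red, and 3.96, 3.65 and 4.06 in white light. All 3 white-light arrays and 1 far-red with ABA array were below detection for it, and it was at least 1.69-fold higher with both signals (adjusted p = 0.00053). Its averaged ABA effect was -0.10 (adjusted p = 0.46). BIM1, a partner of brassinosteroid transcription factors, rose by 0.59 ± 0.09, YUC2, an auxin synthesis enzyme, differed by -0.38 with a call lost in 5 settings, and the other 5 lay from -0.19 to 0.14. Of 12 measured Aux/IAA, GH3 and SAUR genes, WES1 and IAA29 rose and none fell.

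Flavonoid and starch genes had the largest shares called among lists with at least 5 measured genes. 5 of 9 measured flavonoid and anthocyanin genes rose and none fell, with a median of 0.49. DFR, dihydroflavonol reductase, stood at 10.24, 10.50 and 10.07 in far-red with ABA, 10.74, 10.51 and 10.58 in white light with ABA, 9.50, 9.59 and 9.07 in far-red, and 8.90, 9.09 and 9.30 in white light. UF3GT, which adds a sugar to anthocyanins, rose by 1.20 ± 0.17, the acyltransferase AT5MAT by 0.88 ± 0.15 and the flavonoid glucosyltransferase UGT78D2 by 0.49 ± 0.12. Averaged far-red effects on these genes were not called, at -0.03 for DFR and -0.07 for UF3GT.

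5 of 7 measured starch genes rose and none fell, with a median of 0.44. After APL3 and AT4G24450 came APL4, another large subunit of the same enzyme (0.95 ± 0.18), and SBE2.2, a starch branching enzyme (0.44 ± 0.08). Of 19 measured sugar transport, sucrose and trehalose genes, 4 rose and 2 fell. SAG29, a sugar transporter of the SWEET family that marks senescence, stood at 8.53, 8.61 and 8.21 in far-red with ABA and 6.67, 6.37 and 7.09 in white light (difference 1.74 ± 0.16, adjusted p = 3.2e-06). The falls were SWEET2 (-0.46) and SWEET17 (-0.38). Of 13 measured nitrogen, sulfur and phosphate genes 5 rose and none fell, led by AT1G68570, with the glucosinolate transporter GTR1 at 0.48 ± 0.09.

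**Figure D5:**
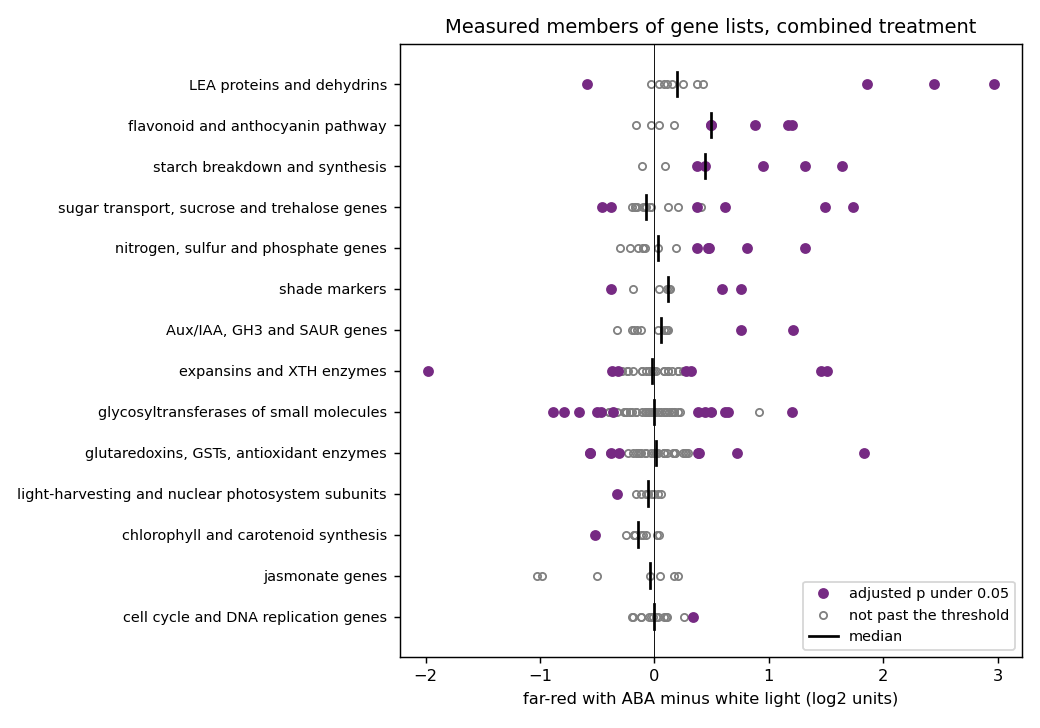
Combined difference (far-red with ABA minus white light, log2 units) of each measured member of 14 gene lists, 1 point a member, filled where the adjusted p is under 0.05, with the median as a bar. Called flavonoid and starch members all lie above 0, and the expansin list runs from -1.98 (EXPA8) to 1.51 (EXPA16).

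Cell-wall enzymes moved in both directions. Of 29 measured expansins and xyloglucan endotransglucosylases, 4 rose and 3 fell, with a median of -0.02. EXPA16 stood at 6.53, 7.16 and 6.61 in far-red with ABA and 5.46, 4.91 and 5.39 in white light, a difference of 1.51 ± 0.16, while EXPA8 fell and the other 22 members not called lay from -0.35 to 0.25. Glycosyltransferases of small molecules had 6 higher and 6 lower of 52 measured. The cytokinin glucosyltransferase UGT76C2 differed by -0.89 ± 0.13. Glutaredoxins, glutathione transferases and antioxidant enzymes had 4 higher and 4 lower of 35.

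Autophagy genes had 1 higher and 1 lower of 11. ATG8E, a ubiquitin-like protein that coats autophagosomes, stood at 6.38, 6.03 and 6.45 in far-red with ABA, 6.90, 6.83 and 6.40 in white light with ABA, 6.04, 6.10 and 6.14 in far-red, and 6.94, 7.07 and 7.04 in white light. It differed by -0.73 ± 0.13, with an averaged far-red effect of -0.67 and an averaged ABA effect of -0.06 (adjusted p = 0.74). UGT71C5, which joins ABA to glucose, differed by -0.47 ± 0.10 (adjusted p = 0.0077).

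The called shares of photosynthesis lists were near or below the 10.6% of all probe sets. Of 9 measured nuclear light-harvesting and photosystem genes 1 was called, PSAN at -0.33, a call lost in 4 settings, and the 8 others lay from -0.16 to 0.06. None of 4 measured Calvin cycle genes was called by limma (1 at an unadjusted p under 0.05), and of 10 chlorophyll and carotenoid genes 1 fell, HEMA2 (-0.52), an enzyme of chlorophyll precursor synthesis. At an unadjusted p under 0.05 there were 5 of these 10 and 1 of the 9 photosystem genes, against 24.6% of all probe sets. Plastid-encoded genes had 0 higher and 2 lower of 69, with a median of 0.06.

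None of 5 gibberellin, 7 jasmonate, 4 stomatal lineage or 8 AP2/ERF genes measured was called by limma, against 10.6% of all probe sets. Lists this short can lack a call at that share. At an unadjusted p under 0.05 there were 1, 3, 1 and 0 of them, against 24.6% of all probe sets. The defensin genes PDF1.2 and PDF1.2b on the jasmonate list had differences of -0.98 (adjusted p = 0.2) and -1.03 (adjusted p = 0.095). The 8 measured reference genes lay from -0.17 to 0.17, none called by limma and 2 at an unadjusted p under 0.05.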

How the data were processed

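Per the labels' protocols, RNA of aerial parts was labelled as biotin cRNA and hybridised to 1-colour Affymetrix arrays, 3 in each of 4 groups. The deposited values are log2 expression per probe set. Per the submitters' processing notes they were made by RMA in affy, which removes most uniform shifts between arrays and compresses low values. Deposited detection calls (present, marginal, absent) come from MAS5, per the same notes. Tool versions and a build are not named in the sources used here, so coordinates are left out. The 2 deposited value tables agreed to within 5.0e-09.

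Of 22810 probe sets, 64 controls were left out. Of the 22746 tested, 13513 had 1 gene in the platform table, 503 several and 8730 are unnamed. For names, 13436 were matched to RefSeq (TAIR10.1). 1061 probe sets carry a mark of possible cross-hybridisation.

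Group means over all 12 arrays were fitted with limma 3.58.1 in R 4.3.3 (lmFit, eBayes, two-sided, Benjamini-Hochberg, threshold 0.05), with 9 contrasts, and the script was tested on simulated data. Where a gene was absent on all arrays of a group, the fold is given as a minimum: each dim array was set to its lowest present-called value, or kept its own if higher, before averaging. The lowest present-called values were 2.46 to 2.8, below the printed values of dim arrays, which thus kept their own. Such a minimum allows for detection only and not for the standard error, so the true fold can be smaller. Intervals and standard errors are from limma. Alternatives were array median centring, quantile scaling, a present filter, trended robust variance, array weights, fits on 2 groups, a replicate block and leaving out each array. A stricter threshold of 0.01 was used for the adding and cancelling counts only.

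The labels do not say what a replicate number marks. Deviations from group means of same-numbered arrays correlated at 0.124, 0.143 and 0.273 between far-red with ABA and far-red. These correlations ran from -0.0511 to 0.0183 for far-red with ABA set against white light. Between white light and white light with ABA they were 0.153, 0.218 and 0.0962, and between white light and far-red 0.035, 0.204 and 0.141. Differently numbered arrays of all group pairs ran from -0.211 to 0.133, a range that holds the 0.124 of far-red with ABA and far-red. Numbers may thus pair some of the groups, which was not tested. In each of the remaining group pairs at least 1 value was under 0.1.

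The genes named are the 12 largest rises and falls among called, non-overlapping single-gene probe sets, 6 adding ones each way, 6 cancelling ones each way by the smaller averaged effect, and up to 4 called members of each of 47 lists. Genes named for detection calls or for differing from all 3 other groups were chosen after values were seen. The groups, members and lists were chosen with earlier results of these data known, and 13 list matches by shared abbreviations were removed after values were seen. 2 lists had no measured member. Plots used matplotlib 3.10.9 (Python 3.11.15).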

Additional observations from a re-analysis of the deposited data

How the results depend on the processing

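In all 20 settings the cancelling probe sets outnumbered the adding ones, white light with ABA against far-red gave more calls than the combined comparison, and the ABA step under far-red gave more than the far-red step with ABA (16.6 to 58.4 times). At an adjusted p of 0.01 the counts were 62 adding, 98 cancelling and 74 cancelling with the interval within 0.5 log2 units. The far-red step with ABA gave 137 with array weights and 149 with a trended robust variance. The trended robust variance also gave 612 cancelling within the interval and 2 interactions. With only the 2 groups compared, far-red alone gave 642 and the combined comparison 1725. Leaving out 1 array at a time gave 1492 to 2371 combined calls, 908 to 1510 for ABA alone, 418 to 1689 for far-red alone, 1518 to 2434 for the ABA step, 31 to 81 for the far-red step, 1133 to 2571 for averaged far-red, 2719 to 4184 for ABA alone against far-red alone, 131 to 257 adding, 237 to 468 cancelling, 195 to 404 cancelling within the interval, and 0 to 2 interactions. The cause of these moves was not tested. Scaling moved the split: quantile scaling gave 55.9% higher of 2341 combined calls and median centring 39.1%. For ABA alone against far-red alone, median centring gave 55.2% higher, against 44.4%.

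With the replicate number as a block the combined count was 2738, the ABA step 2694, adding 296 and cancelling 585. The replicate block changed no call of a named gene and moved no count by over 1.5 times. Of 139 results of named genes, 116 kept their call under every alternative run. Of 2586 values, 128 lost a call and none reversed. All these results were called in the main fit, so none could gain a call. The number of arrays limits precision. Genes absent on every array of a group carry bounds, and differences of genes absent on some arrays are less certain.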

Other observations

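Many of the large differences have no gene name here. Of the 216 probe sets called at 2-fold or more in the combined comparison, 105 had 1 gene, 106 were unnamed and 5 were listed with several genes. The 2 unnamed probe sets with the largest rises differed by 6.12 and 5.43, more than any named gene. The lowest unnamed ones differed by -2.60 and -2.59.

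AT1G23390, a Kelch-repeat F-box gene, had a combined difference of -1.53, against -0.51 for ABA alone and -1.85 for far-red alone. Its interaction of 0.83 had an adjusted p of 0.4 in limma, and of 0.0487 with a trended robust variance.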
